A study of Homo sapiens with 6 samples.

Results

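The genes described here encode the subunits of the transcription factor NF-kB and its inhibitors and feedback regulators. They are the 5 subunit genes RELA, REL, NFKB1, RELB and NFKB2, the inhibitor genes NFKBIA, NFKBIB and NFKBIE, the nuclear cofactor gene BCL3 and the ubiquitin-editing enzyme gene TNFAIP3. The members were listed by name, and all 10 were present among the 19876 gene symbols of the deposited tables. All 10 also passed the filter on low counts that left 13567 genes for testing. They were compared between 3 RNA sequencing libraries of A549 cells cultured with rhTR11B and 3 of A549 cells cultured with phosphate-buffered saline (PBS) as negative control. A549 is an established human lung adenocarcinoma line, both groups had the genotype WT, and both were kept in medium with fetal bovine serum and antibiotics. TR11B abbreviates TNFRSF11B, the soluble decoy receptor osteoprotegerin. The meaning of rhTR11B, its dose and the length of treatment are not in the labels. The libraries were called biological replicates, with no statement of separate cultures, so p-values reflect the scatter among the 6 libraries, part or all of which may be technical.

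NF-kB acts as dimers of Rel-domain proteins that are held in the cytoplasm by inhibitor of kappa-B (IkB) proteins until a kinase complex marks the inhibitor for destruction. In the canonical branch the dimers contain RELA or REL with the product of NFKB1, and in the non-canonical branch RELB pairs with the product of NFKB2. Several genes of the system carry kappa-B sites and are switched on by NF-kB itself, NFKBIA and TNFAIP3 among the best known, and this closes a negative feedback loop. In lung epithelium and its tumours the pathway is known for inflammatory and survival signalling.

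Library totals were 36315751 to 36992958 counts with rhTR11B and 37203313 to 38148838 counts with PBS. The 13 mitochondrially encoded genes took 7.88% to 10.4% of the counts with rhTR11B and 6.63% to 7.71% with PBS. On the leading principal component of log2 CPM (counts scaled to a common library size), with 36.4% of the variance, rhTR11B replicate 3 stood at 25.7, against 2.66 and 8.63 for the other rhTR11B libraries and -18.4 to -5.96 for the PBS libraries. Of 9 listed epithelial markers of A549 cells, 7 were in the tables. The keratin genes KRT8, KRT18 and KRT7 and the enzyme gene NQO1 were well expressed. The epithelial adhesion genes EPCAM and CDH1 were near 0, at 0.0645 and 0.00371 FPKM with rhTR11B and 0.0571 and 0.00180 FPKM with PBS. FPKM are fragments per kilobase of gene length, scaled to the library total. Of the listed blood and macrophage, endothelial and fibroblast markers, 5 of 8, 3 of 5 and 6 of 7 were in the tables, and their sums were 2.25 to 2.86, 0.0427 to 0.0591 and 0.780 to 1.25 FPKM with rhTR11B and 1.69 to 2.47, 0.0284 to 0.0931 and 0.481 to 0.668 FPKM with PBS. The macrophage gene CD68, which other cells also express, was the single one of these at a mean of 1 FPKM or more. With bulk RNA, fewer cells with a transcript and less of it per cell cannot be told apart.

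RefSeq promoter windows on GRCh38.p14, from 250 bases before to 50 after an annotated start of the gene, were at hand for 8 of the 10 members. There was none for RELB and NFKBIE, and a single window was searched per gene. In TNFAIP3 and BCL3 the start used lies inside the gene, whose outermost start is at 137866349 and 44747705. The kappa-B consensus, searched on both strands, occurred in 5 of these 8, against 5.72% of 27305 promoters and 6.51% of the 10719 promoters of tested genes. The 5 were NFKBIA, NFKB1, REL, TNFAIP3 and BCL3. They are printed below with the window of NFKBIB, an inhibitor gene without a match, so that the sites can be seen. Each is given 5′ to 3′ on the strand of its gene, and capitals mark the matches. The windows lie at chr14:35404700-35404999 (minus strand), chr4:102501109-102501408 (plus), chr2:60881324-60881623 (plus), chr6:137867009-137867308 (plus), chr19:44748458-44748757 (plus) and chr19:38899416-38899715 (plus).
NFKBIA: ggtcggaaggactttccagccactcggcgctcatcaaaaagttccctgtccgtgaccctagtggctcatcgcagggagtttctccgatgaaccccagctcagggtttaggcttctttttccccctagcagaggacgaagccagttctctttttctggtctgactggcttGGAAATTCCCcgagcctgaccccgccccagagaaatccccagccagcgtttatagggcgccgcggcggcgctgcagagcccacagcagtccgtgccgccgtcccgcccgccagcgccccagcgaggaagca
NFKB1: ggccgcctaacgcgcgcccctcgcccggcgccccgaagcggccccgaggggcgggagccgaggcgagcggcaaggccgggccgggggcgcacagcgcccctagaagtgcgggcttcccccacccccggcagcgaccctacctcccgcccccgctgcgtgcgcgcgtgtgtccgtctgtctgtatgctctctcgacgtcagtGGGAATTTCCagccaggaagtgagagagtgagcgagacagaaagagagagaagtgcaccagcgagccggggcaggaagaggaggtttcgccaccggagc
REL: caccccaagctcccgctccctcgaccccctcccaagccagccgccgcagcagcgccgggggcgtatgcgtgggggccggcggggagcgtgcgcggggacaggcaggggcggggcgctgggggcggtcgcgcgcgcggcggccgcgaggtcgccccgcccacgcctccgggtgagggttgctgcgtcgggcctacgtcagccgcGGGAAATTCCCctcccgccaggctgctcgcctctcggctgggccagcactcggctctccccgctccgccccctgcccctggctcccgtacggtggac
TNFAIP3: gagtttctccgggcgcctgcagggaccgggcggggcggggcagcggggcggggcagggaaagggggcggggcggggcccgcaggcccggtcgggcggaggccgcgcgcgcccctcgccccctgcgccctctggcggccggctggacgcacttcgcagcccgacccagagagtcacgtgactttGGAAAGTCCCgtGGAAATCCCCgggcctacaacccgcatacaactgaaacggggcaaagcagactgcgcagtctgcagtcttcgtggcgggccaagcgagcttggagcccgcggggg
BCL3: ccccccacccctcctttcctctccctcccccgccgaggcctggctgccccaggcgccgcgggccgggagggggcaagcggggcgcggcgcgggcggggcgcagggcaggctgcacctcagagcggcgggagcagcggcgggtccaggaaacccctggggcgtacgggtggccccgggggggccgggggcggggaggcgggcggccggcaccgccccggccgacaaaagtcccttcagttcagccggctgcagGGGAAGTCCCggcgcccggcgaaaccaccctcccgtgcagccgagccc
NFKBIB: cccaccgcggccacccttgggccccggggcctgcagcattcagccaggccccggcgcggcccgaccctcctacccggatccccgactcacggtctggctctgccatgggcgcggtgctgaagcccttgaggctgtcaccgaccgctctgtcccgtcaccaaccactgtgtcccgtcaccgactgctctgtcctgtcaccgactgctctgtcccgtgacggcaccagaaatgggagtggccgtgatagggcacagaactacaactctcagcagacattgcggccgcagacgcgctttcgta

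Read on the strand of the motif, NFKBIA, NFKB1 and REL carried the same 10 letters, GGGAATTTCC. The match began 81 bases before the start in NFKBIA, 49 bases before it in NFKB1 and 46 bases before it in REL. In REL a second match on the opposite strand, GGGAAATTCC, overlapped the first by all but 1 base. TNFAIP3 held a pair of matches that did not overlap, at 67 and 55 bases before the start used for its window, which read GGGACTTTCC and GGGGATTTCC. The match of BCL3, GGGACTTCCC, began at base 3, counting the start used for its window as base 1. RELA, NFKB2 and NFKBIB had no match to the consensus in this window. The last bases of the window lay in 0 transcripts for RELA and NFKBIB. They lay in 1 to 4 for each of the other members with a window. The windows of RELA and NFKBIB were thus not placed on a transcript, and their lack of a match holds for these windows only. That of NFKB2 likewise holds for its window only, since other starts of the gene were not searched. The GC box letters GGGCGG, on either strand, were present in 6 of 8 members, 44.6% of all promoters and 70.6% of those of tested genes. The TATA box letters TATAAA, searched on both strands, were found among the 8 in NFKBIA alone, on the strand opposite to the gene, in 12.0% of all promoters and in 5.42% of those of tested genes. The GC content of the windows was 51.3% in RELA, 60.7% in NFKB2, 62.0% in NFKBIA, 66.7% in NFKBIB, 71.3% in NFKB1, 73.7% in TNFAIP3, 79.0% in REL and 80.0% in BCL3, against a median of 65.3% over tested genes. A match of letters describes the window and does not show binding.

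**Figure D1:**
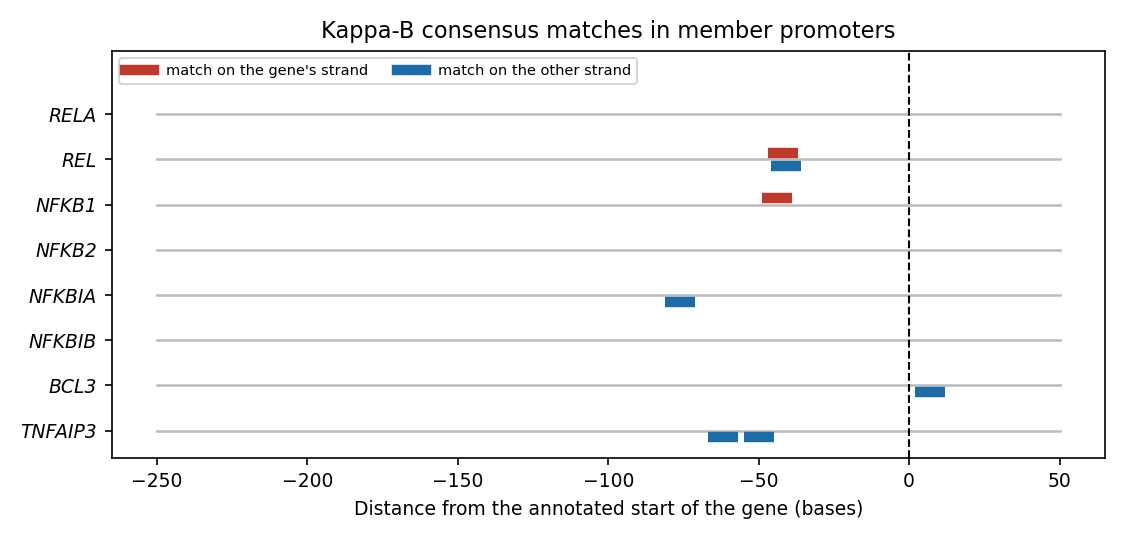
Positions of kappa-B consensus matches (bars of 10 bases) in the promoter windows of 8 members, red on the strand of the gene and blue on the other strand. Distance is in bases from the annotated start used for the window (dashed line), which in TNFAIP3 and BCL3 is not the outermost start of the gene. The matches of 4 genes begin between 81 and 46 bases before the start, that of BCL3 just after it, and RELA, NFKB2 and NFKBIB have none. The windows of RELA and NFKBIB were not placed on a transcript.

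All of the members were expressed in A549 cells, and their levels per length spanned more than an order of magnitude. NFKBIA, whose product is the IkB that is degraded and resynthesised fastest, stood highest with a mean of 126.6 FPKM over the 6 libraries (range 120.2 to 134.3), at or above the mean FPKM of 97.3% of tested genes. RELA followed at 45.3 FPKM, then NFKB2 at 37.5, RELB at 30.03 and NFKB1 at 22.2 FPKM. These 5 and the next gene down were separated, with no overlap of neighbours over the 6 libraries. NFKBIB, NFKBIE and BCL3 came next at means of 16.4, 15.1 and 13.1 FPKM, and their ranges overlapped from neighbour to neighbour. TNFAIP3 had 6.45 FPKM and REL, the subunit best known from lymphocytes, had 4.81 FPKM, the lowest of the members. Their ranges of 5.97 to 6.91 and 4.65 to 4.99 FPKM did not overlap.

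The order depends on the gene length that the authors divided by. That length was 5244 bases for BCL3 and 8616 bases for TNFAIP3, where the exons of the GENCODE 29 basic set cover 2038 and 4738 bases. With the GENCODE lengths BCL3 would have 33.8 FPKM, which moves it to rank 4, and TNFAIP3 would have 11.7 FPKM. NFKB2 would then stand above RELA, at 38.4 against 34.1 FPKM. NFKBIA stayed highest and REL lowest with either length. Of the REL exon bases, 50.7% are shared with the same-strand noncoding gene AC010733.2 in GENCODE 29, so the counts of REL depend on how such reads were assigned. NFKBIB shares 40 exon bases with SIRT2 on the opposite strand and RELA 9 with AP001362.2. The other 7 members share none.

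**Figure D2:**
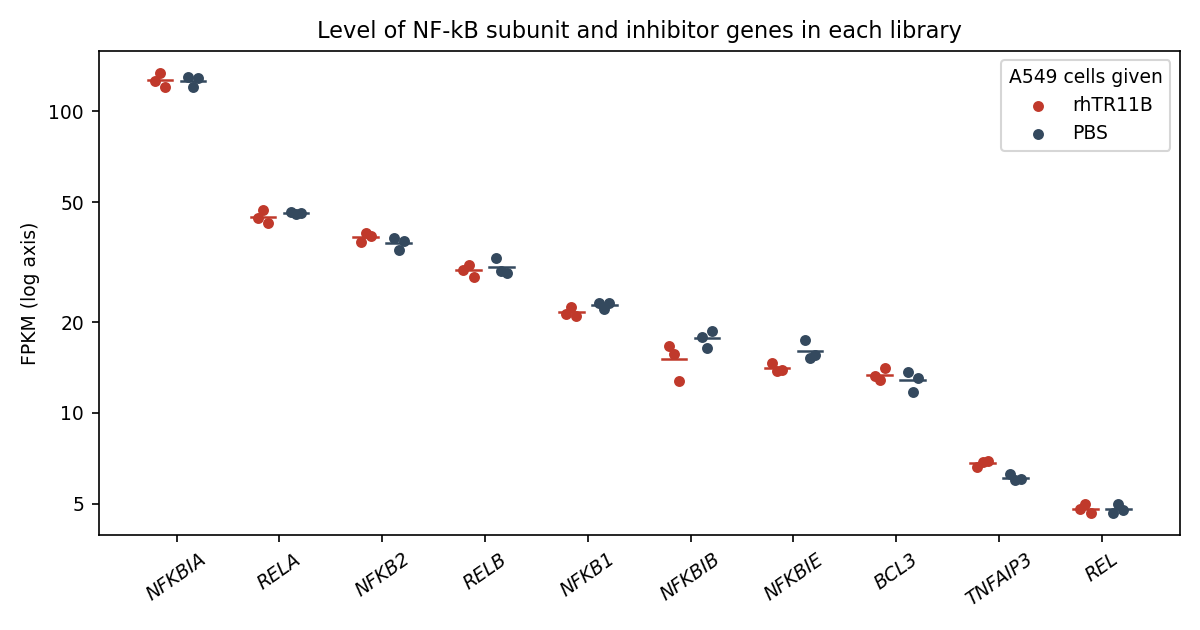
FPKM (log axis) of the 10 members in each library, with rhTR11B libraries in red and PBS libraries in dark grey, and horizontal lines at the group means. Levels run from 134.3 FPKM for NFKBIA to 4.65 FPKM for REL, and the groups overlap for all genes except NFKBIE and TNFAIP3.

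None of the 10 members passed the test between rhTR11B and PBS. At a Benjamini-Hochberg adjusted p under 0.05 (edgeR, quasi-likelihood test) the members held 0 higher and 0 lower calls, where 2.92% of all tested genes were higher and 0.678% lower, or 3.6% in either direction. At an unadjusted p under 0.05 there were 3 of 10, TNFAIP3, NFKBIB and NFKBIE, against 24.2% of all tested genes. DESeq2 and limma-voom also called 0 of the 10, and DESeq2 called 9.13% of the genes to which it gave an adjusted p. The median log2 fold change of the members was 0.00, as it was for all tested genes, and 5 members were above 0 and 5 below. The 95% intervals of the single genes ran from 0.759-fold at the lowest, for NFKBIB, to 1.23-fold at the highest, for TNFAIP3. The interval was narrower for most, such as 0.904-fold to 1.07-fold for RELA.

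Of the canonical subunits, RELA, the main transactivating subunit, had 44.2, 47.0 and 42.6 FPKM in rhTR11B replicates 1 to 3, against 46.3, 45.6 and 46.0 FPKM in PBS replicates 1 to 3. The PBS values lay inside the range of the rhTR11B values, and the log2 fold change was -0.03 (SE 0.06, 95% interval -0.15 to 0.09, adjusted p = 0.810 in edgeR). NFKB1, which encodes the precursor of RELA's partner in the classical dimer, had 21.2, 22.4 and 21.0 FPKM with rhTR11B and 23.2, 22.1 and 23.2 FPKM with PBS. All but 1 of the PBS libraries were above the 3 rhTR11B libraries, and the log2 fold change was -0.07 (SE 0.06, interval -0.19 to 0.05, adjusted p = 0.499 in edgeR). REL had 4.80, 4.97 and 4.67 FPKM with rhTR11B and 4.65, 4.99 and 4.77 FPKM with PBS. Its groups covered almost the same range, with a log2 fold change of 0.02 (interval -0.11 to 0.15). REL and RELA were also among the steadiest transcripts. The highest library exceeded the lowest 1.07-fold for both in CPM, against a median of 1.26-fold over all tested genes.

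Of the non-canonical subunits, NFKB2, whose product is both a precursor subunit and an inhibitor of RELB, had 36.9, 39.6 and 38.5 FPKM with rhTR11B. With PBS it had 38.1, 34.7 and 37.1 FPKM, so PBS replicates 1 and 3 lay above the lowest rhTR11B library and the groups overlapped. The log2 fold change was 0.08 (SE 0.06, interval -0.04 to 0.20, adjusted p = 0.430 in edgeR). RELB had 29.9, 31.0 and 28.2 FPKM with rhTR11B and 32.6, 29.4 and 29.2 FPKM with PBS. Its highest value belonged to PBS replicate 1 and the others of both groups interleaved, with a log2 fold change of -0.02 (interval -0.15 to 0.11).

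Set against each other within a library, which removes the scaling between libraries, the precursor genes of the branches stood apart more than either did alone. The ratio of NFKB2 to NFKB1 in FPKM was 1.74, 1.76 and 1.84 with rhTR11B, against 1.65, 1.57 and 1.60 with PBS. The rhTR11B libraries were all higher, with means of 1.78 ± 0.0524 and 1.61 ± 0.0399 (SD, n = 3 each). Over all pairs of tested genes, 25% of such ratios have groups that do not overlap, so 1 pair of this kind is common. The ratio of RELB to RELA, the transactivating partners of the branches, overlapped at 0.676, 0.658 and 0.661 with rhTR11B and 0.703, 0.646 and 0.634 with PBS. Of the summed FPKM of the 5 subunits, NFKB2 made up 27.6% ± 0.856 with rhTR11B and 26.1% ± 0.604 with PBS. NFKB1 made up 15.5% ± 0.0305 with rhTR11B and 16.2% ± 0.273 with PBS. RELA made up 32.1% ± 0.456 with rhTR11B and 32.7% ± 0.666 with PBS, the largest share with the authors' gene lengths but not with those of GENCODE, where NFKB2 would stand above it.

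None of the 3 classical inhibitors passed the test. NFKBIA had 126.4, 134.3 and 120.2 FPKM with rhTR11B and 129.6, 120.3 and 129.0 FPKM with PBS. Both groups held low and high libraries, and the log2 fold change was 0.02 (SE 0.06, interval -0.10 to 0.15, adjusted p = 0.848 in edgeR). NFKBIB, which encodes an IkB that is replaced more slowly, had 16.7, 15.7 and 12.7 FPKM with rhTR11B and 17.9, 16.4 and 18.8 FPKM with PBS. The groups overlapped between rhTR11B replicate 1 and PBS replicate 2, and rhTR11B replicate 3 lay lowest. The log2 fold change was -0.22 (SE 0.09, interval -0.40 to -0.04, unadjusted p = 0.0204, adjusted p = 0.131 in edgeR).

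The value of NFKBIB depended most on rhTR11B replicate 3, the library that stood apart on the first component and had the highest mitochondrial share, 10.4%. Without that library the log2 fold change of NFKBIB was -0.12 (adjusted p = 0.397 in edgeR), and without PBS replicate 3 it was -0.17 (adjusted p = 0.389). Without rhTR11B replicate 1 it was -0.30 and passed (adjusted p = 0.0382). It also passed, at -0.22, when no filter on low counts was applied (adjusted p = 0.0420). NFKBIE, which encodes an IkB that preferentially holds RELA and REL dimers, had 14.7, 13.8 and 13.9 FPKM with rhTR11B, against 17.4, 15.2 and 15.6 FPKM with PBS. The rhTR11B libraries were all lower, a separation that 14% of tested genes showed in that direction. The log2 fold change was -0.17 (SE 0.07, interval -0.32 to -0.02, unadjusted p = 0.0296, adjusted p = 0.159 in edgeR), and -0.11 without PBS replicate 1.

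NFKBIA dominated the inhibitor transcripts. It made up 80.1%, 82.0% and 81.9% of the summed FPKM of the 3 classical inhibitors with rhTR11B and 78.6%, 79.2% and 79.0% with PBS. The rhTR11B libraries were all higher in this share, though NFKBIA itself overlapped between the groups (log2 fold change 0.02). How often such shares separate for other genes was not examined. The share rests on the authors' gene lengths. With those of GENCODE the means would be 103.9 FPKM for NFKBIA, 19.5 for NFKBIB and 13.7 for NFKBIE, a lower share for NFKBIA. NFKBIB held 9.61% ± 0.952 with rhTR11B and 11.0% ± 0.379 with PBS, and NFKBIE 9.06% ± 0.554 with rhTR11B and 10.0% ± 0.517 with PBS. The ratio of NFKBIA to RELA, inhibitor to its main target, was 2.86, 2.85 and 2.82 with rhTR11B, against 2.80, 2.64 and 2.80 with PBS. These did not overlap, but the gap between 2.82 and 2.80 was smaller than the spread among the PBS libraries. Of the 6 ratios examined, 5 had groups that did not overlap, beside 25% over all pairs. The 6 share genes with one another, and 4 of them contain NFKBIA, so they are not separate observations.

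**Figure D3:**
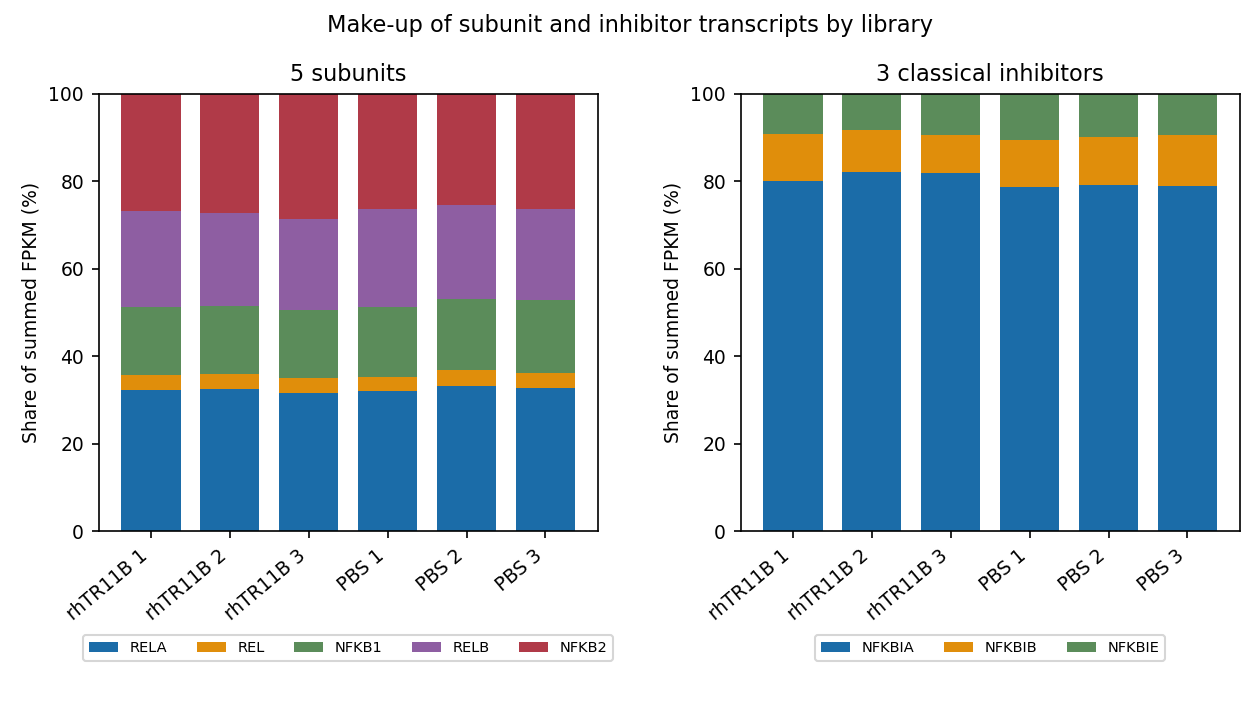
Share (%) of each gene in the summed FPKM of the 5 subunits (left) and of the 3 classical inhibitors (right), 1 bar per library, rhTR11B libraries left of PBS libraries. With the authors' gene lengths NFKBIA takes 80.1% to 82.0% of the inhibitor sum with rhTR11B and 78.6% to 79.2% with PBS. RELA takes the largest part of the subunit sum in every library with these lengths, a place which the GENCODE lengths would give to NFKB2.

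TNFAIP3, the deubiquitinase and ubiquitin ligase that shuts off signalling upstream of the IkB kinases, had the smallest p of the members. It had 6.60, 6.89 and 6.91 FPKM with rhTR11B, against 6.25, 5.97 and 6.05 FPKM with PBS. The rhTR11B libraries were all higher, a separation that 15.1% of tested genes showed in that direction. The log2 fold change was 0.18 (SE 0.06, interval 0.05 to 0.30, unadjusted p = 0.00972, adjusted p = 0.0917 in edgeR). With 1 library left out it ran from 0.16 to 0.20, with adjusted p from 0.0860 to 0.278. The ratio of TNFAIP3 to NFKBIA, the other gene of the feedback loop, was 0.0522, 0.0513 and 0.0575 with rhTR11B and 0.0482, 0.0496 and 0.0469 with PBS. These did not overlap, as for 25% of ratios over all pairs of tested genes. TNFAIP3 itself separated and NFKBIA had a log2 fold change of 0.02, so the ratio is no separate observation.

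BCL3, an atypical IkB protein that works in the nucleus with homodimers of the NFKB1 and NFKB2 products, had 13.2, 12.9 and 14.1 FPKM with rhTR11B and 13.7, 11.7 and 13.1 FPKM with PBS. The groups overlapped, with a log2 fold change of 0.08 (SE 0.07, interval -0.07 to 0.23, adjusted p = 0.515 in edgeR). Set beside the promoters, the 5 members with a kappa-B match had log2 fold changes of 0.18 for TNFAIP3, 0.08 for BCL3, 0.02 for NFKBIA, 0.02 for REL and -0.07 for NFKB1. The 3 without a match in the window searched had 0.08 for NFKB2, -0.03 for RELA and -0.22 for NFKBIB. Of these, the windows of RELA and NFKBIB were not placed on a transcript, which limits the comparison. Over all tested genes with a promoter window, 38 of 698 with the consensus were called higher (5.44%) and 264 of 10021 without it (2.63%). The called lower were 2 of 698 (0.287%) and 80 of 10021 (0.798%), and this difference was not tested.

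**Figure D4:**
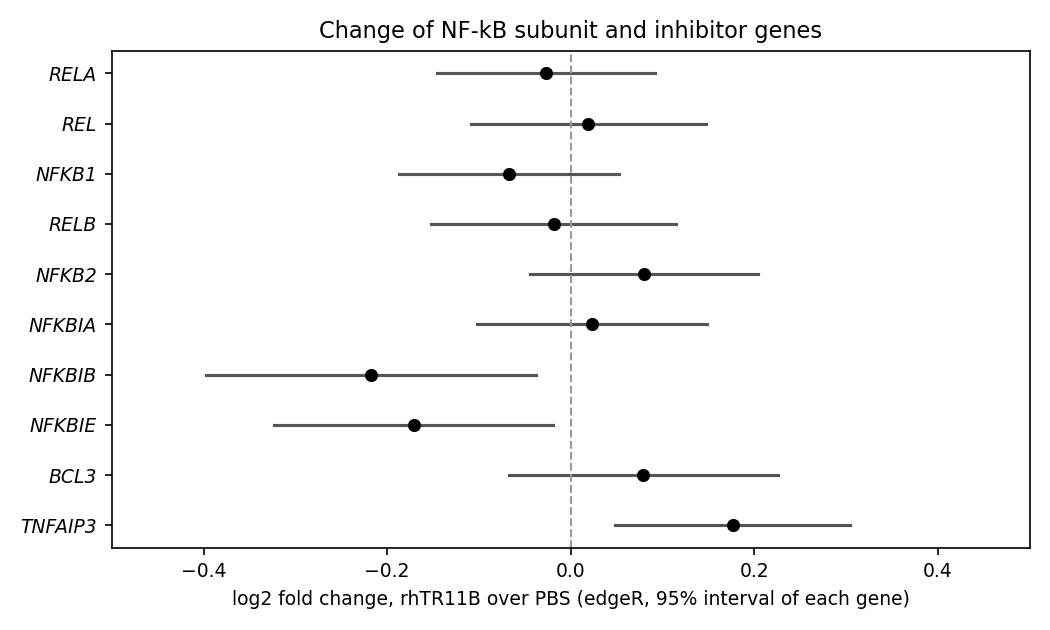
Log2 fold change of each member with rhTR11B over PBS (points, edgeR) with the 95% interval of each gene (bars), ordered by role. The intervals of TNFAIP3, NFKBIB and NFKBIE leave out 0 before adjustment for multiple testing, and none of the 10 has an adjusted p under 0.05.

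Around the members, 5 other lists of the pathway were counted, and differences between the lists were not tested. Among 10 other regulators of IkB and of the subunits 1 was called, beside 3.6% of all tested genes. NFKBID, which encodes another nuclear IkB protein, had 11.1, 11.2 and 10.1 FPKM with rhTR11B, against 9.93, 8.33 and 8.90 FPKM with PBS. Every rhTR11B library was higher, as for 15.1% of tested genes. NFKBID rose 1.21-fold (log2 fold change 0.27, interval 0.12 to 0.43, adjusted p = 0.0479 in edgeR). That call did not hold when either PBS replicate 2 or PBS replicate 3 was left out (adjusted p = 0.221 and 0.194), nor without rhTR11B replicates 1 or 2 (adjusted p = 0.0591 and 0.0904). NFKBIZ, a relative of BCL3, had a log2 fold change of 0.15 (adjusted p = 0.219 in edgeR), and NKRF, a repressor of NF-kB target promoters, had -0.14 (adjusted p = 0.212). The ubiquitin ligase component FBXW11, which recognises phosphorylated IkB and had the highest level of this list, 16.6 FPKM over the 6 libraries, had -0.12, and COMMD1, which promotes removal of RELA, had -0.15. The median of the list was -0.09.

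Of 14 IkB kinase subunits and upstream kinases 0 were called by edgeR and 0 by DESeq2, and 4 had an unadjusted p under 0.05 in edgeR, beside 24.2% of all tested genes. MAP3K14, the kinase that starts the non-canonical branch, had 8.03, 8.17 and 8.26 FPKM with rhTR11B, against 9.13, 9.87 and 9.25 FPKM with PBS. The rhTR11B libraries were all lower, as for 14% of tested genes, with a log2 fold change of -0.19 (adjusted p = 0.0872 in edgeR). MAP3K8, a kinase bound by the NFKB1 precursor, was barely expressed, at 0.419, 0.368 and 0.431 FPKM with rhTR11B and 0.291, 0.321 and 0.210 FPKM with PBS. Its log2 fold change was 0.58 with an interval of 0.17 to 1.00 (adjusted p = 0.0835 in edgeR), and it passed with no filter on low counts (adjusted p = 0.0405). MAP3K7, RIPK2 and the kinase subunit CHUK had -0.14, -0.18 and -0.13, and TBK1, the highest of the list at 20.4 FPKM over the 6 libraries, had -0.04.

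Of 15 receptor adaptors and ubiquitin ligases 0 were called by edgeR, where 2 had an unadjusted p under 0.05 beside 24.2% of all tested genes, and IRAK1 was called lower by DESeq2. IRAK1, a kinase below interleukin and Toll-like receptors, had 83.5, 85.2 and 71.0 FPKM with rhTR11B, against 91.1, 91.1 and 97.8 FPKM with PBS. Each rhTR11B library was lower, as for 14% of tested genes. The log2 fold change of IRAK1 was -0.21 in edgeR (adjusted p = 0.0759) and -0.21 in DESeq2 (adjusted p = 0.0336), and -0.14 without rhTR11B replicate 3. In edgeR it passed without rhTR11B replicate 1 (adjusted p = 0.0450) and with no filter on low counts (adjusted p = 0.0184). TRAF5, an adaptor of TNF receptors, had a log2 fold change of 0.23 (adjusted p = 0.0874 in edgeR, and 0.0446 with no filter on low counts). Of 13 tested partners of TNFAIP3 and other brakes 0 were called by edgeR and 0 by DESeq2. In edgeR 0 of them had an unadjusted p under 0.05, beside 24.2% of all tested genes. OTULIN and OTUD7B, both deubiquitinases, had -0.12 and -0.12, and ZC3H12A, an RNase that destroys inflammatory transcripts, had 0.13.

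Among 30 listed NF-kB targets 27 were in the tables and 20 were tested, and 7 were called higher and 0 lower, 35% beside 3.6% of all tested genes. This list was drawn up with earlier results of these libraries known and is no independent evidence. Its median log2 fold change was 0.25, with 17 of the 20 tested genes above 0 and 3 below. NFKBIA at 0.02 and TNFAIP3 at 0.18, which NF-kB also switches on, are members and not on this list. CSF1, the macrophage growth factor, had 11.1, 10.6 and 13.0 FPKM with rhTR11B, against 9.54, 8.37 and 8.84 FPKM with PBS. It rose 1.31-fold without overlap of the groups, as for 15.1% of tested genes in that direction (log2 fold change 0.39, adjusted p = 0.0187 in edgeR). The cytokine LTB, part of a ligand that drives the non-canonical branch, rose 1.46-fold, to 15.2, 16.6 and 14.3 FPKM with rhTR11B, against 12.4, 9.50 and 10.0 FPKM with PBS (adjusted p = 0.0145). TNF, which drives the canonical branch, rose 1.19-fold, to 52.0, 56.4 and 58.8 FPKM with rhTR11B, against 51.4, 44.5 and 45.8 FPKM with PBS (adjusted p = 0.0474), and ICAM1 and CCL2 each rose 1.37-fold (adjusted p = 0.00561 and 0.00561). The call of TNF was also lost without rhTR11B replicate 2 (adjusted p = 0.0747 in edgeR) or rhTR11B replicate 3 (adjusted p = 0.0620). With PBS replicate 2 or PBS replicate 3 left out, 0 of the 20 targets passed, and with scaling by library size alone 4 passed. CXCL10, IL1A and IL1B were not analysed here.

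**Figure D5:**
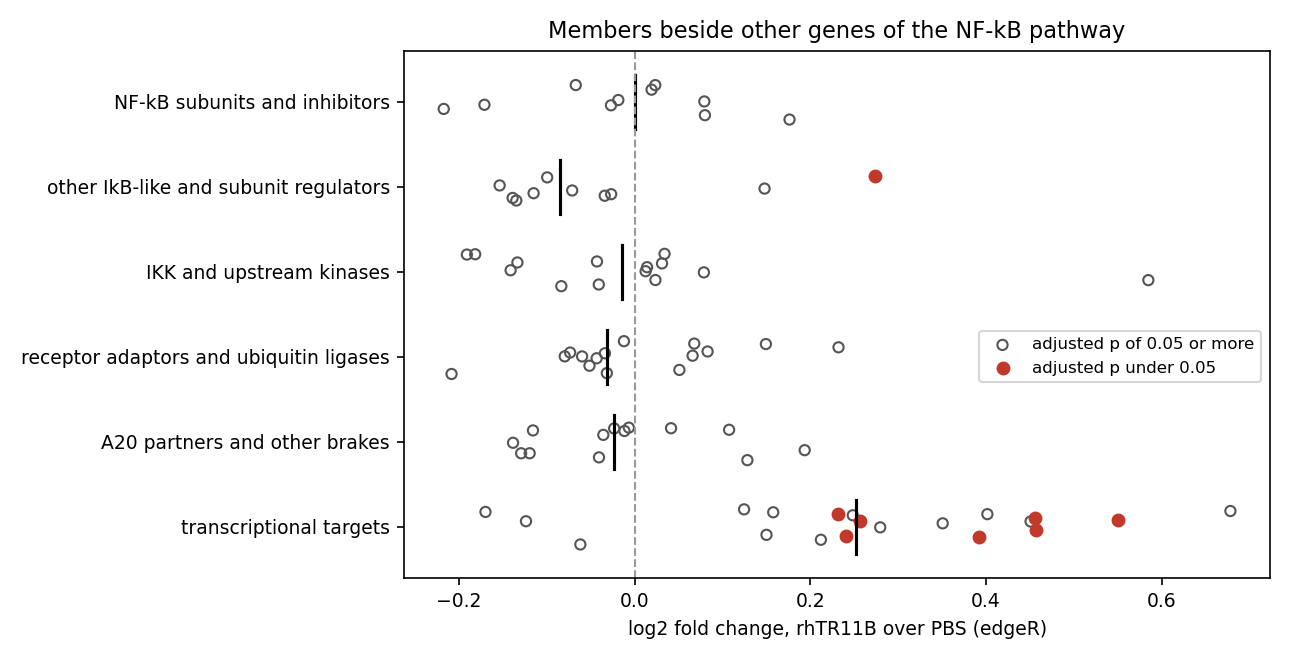
Log2 fold change with rhTR11B over PBS (edgeR) of the 10 members and of the tested genes of 5 other lists of the NF-kB pathway, 1 point per gene, filled red where the adjusted p is under 0.05, with a black line at the median of each list. The members and the signalling lists sit around 0 with NFKBID as the single call. Of the 20 targets 7 are filled, each of them above 0, and 3 of the 20 lie below 0. The target list was drawn up with earlier results of these libraries known and is no independent evidence.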

How the data were processed

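RNA was sequenced from 6 libraries of A549 cells, 3 given rhTR11B and 3 given PBS, grouped by their labels. Behind the authors' deposited tables of counts and FPKM the submitters' processing notes name GRCh38, HISAT, HTSeq, fastp, DESeq2 and R 3.2.0. Their order, the annotation and the strandedness of counting are not stated there, so sense and antisense reads may be mixed where genes overlap. Each deposited FPKM equals the count over a gene length and the library total for 100% of genes within a relative tolerance of 0.001, so they are no second measurement.

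The deposited counts were compared with edgeR 4.0.16 in R 4.3.3: filterByExpr (minimum count 10), TMM scaling, the group as the only term, the quasi-likelihood test, and Benjamini-Hochberg adjustment over 13567 genes. The step was checked on simulated counts. A standard error is the log2 fold change over the square root of F, and its 95% interval is for the single gene. Counts of 1173 to 7745 per member and library leave little counting error, which intervals on single libraries would alone cover. Within groups, the chi-square per degree of freedom between libraries was 5.33 to 26.1, where sampling noise gives about 1, so none was a copy. Alternatives were DESeq2 1.42.0, limma 3.58.1 (voom, and trend on log2(FPKM + 1) or log2(FPKM + 0.1)), other scalings and filters, a replicate block, no mitochondrially encoded genes, and leaving out each library. GENCODE 29 lengths were added after the data were seen.

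Promoters came from RefSeq (GRCh38.p14) and exon overlaps from GENCODE 29, both searched in Python 3.11.15. The members and lists were chosen with earlier results of these data known. A marker of the epithelial list, and the sum that holds it, are not reported here. Besides the members, the rule for naming takes from each list up to 5 genes by smallest p and the gene with the highest FPKM.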

Additional observations from a re-analysis of the deposited data

How the results depend on the processing

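The absence of called members held in most settings. No member was called higher in the main comparison or in any of the 17 alternatives run on it, and 1, NFKBIB, was called lower with no filter on low counts. With 1 library left out the members called lower numbered 0 to 1, again NFKBIB, without rhTR11B replicate 1. RELB, NFKBIA, REL and TBK1, all close to 0, changed sign with a library left out. RELB had log2 fold changes of -0.046 (PBS replicate 2 left out) to 0.033 (PBS replicate 1 left out). NFKBIA had -0.015 (PBS replicate 2) to 0.053 (rhTR11B replicate 3), REL -0.0044 (PBS replicate 1) to 0.042 (PBS replicate 2) and TBK1 -0.075 (rhTR11B replicate 1) to 0.0028 (rhTR11B replicate 3). The cause of these changes was not tested.

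Counts over all genes, 396 higher and 92 lower, varied far more. They were 728 and 348 with DESeq2, 940 and 483 with no filter on low counts, 205 and 26 with a mean of at least 5 CPM, and 62 and 21 or 64 and 22 with limma-trend on log2(FPKM + 1) or log2(FPKM + 0.1). Limma-trend on log2(FPKM + 1) with no filter called 0 and 0, with 3073 genes at an unadjusted p under 0.05. With 1 library left out they ran from 9 higher and 3 lower, with PBS replicate 3 out, to 903 higher and 427 lower, with rhTR11B replicate 1 out, and were 18 and 5 with PBS replicate 2 out. Of the pathway genes outside the members, 8 were called higher and 0 lower. The higher ones were 4 with library size alone, 13 with no filter, 4 with a mean of at least 5 CPM, and 3, 3 and 0 with limma-trend on log2(FPKM + 1), on log2(FPKM + 0.1) and on log2(FPKM + 1) without a filter. They ran from 0 to 9 with 1 library left out. The lower ones were 1 with DESeq2, 1 with no filter and 0 to 1 with 1 library left out.

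Libraries with the same replicate number showed no shared deviation (correlations of -0.10, 0.05 and -0.01). With 3 libraries a group this cannot decide whether the numbers pair libraries. With the replicate number as a block, 774 genes were higher and 252 lower, against 396 and 92 without it, and 0 members were called. Exon lengths of GENCODE 29 would give mean FPKM of 34.1 for RELA, 17.9 for NFKB1, 103.9 for NFKBIA, 19.5 for NFKBIB, 13.7 for NFKBIE, 33.8 for BCL3 and 11.7 for TNFAIP3, by construction. The 6 ratios kept the sign of their group difference with 1 library left out, except RELB to RELA, which ran from -0.02 to 0.06 on the log2 scale. With 3 libraries a group, the intervals of the members reach from 0.759-fold to 1.23-fold at 95% confidence.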
